A study of Mus musculus with 8 samples.

Results

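A set of 8 genes known for multinucleated osteoclasts and for the fusion of macrophages was examined in hepatic macrophages given cholesterol crystals. They were the rows of the deposited gene table with the symbols *Atp6v0d2*, *Dcstamp*, *Ocstamp*, *Acp5*, *Ctsk*, *Nfatc1*, *Mitf* and *Oscar*, 8 of 55401 genes. All 8 symbols were found, each in 1 row. The rule names them by symbol, and they were chosen with earlier results of these data known. Poly(A) RNA was sequenced in 8 libraries, with 2 libraries for each of 4 groups. Macrophages were taken with magnetic beads against F4/80, a surface protein of macrophages, from wild-type C57BL/6J mice on a standard diet (normal livers) or from MC4R-KO mice, which lack the melanocortin-4 receptor and become obese, after 6 to 10 wk of a Western diet (steatotic livers). Genotype and diet changed together and cannot be told apart. The cells were kept for 24 h on collagen-coated plates with cholesterol crystals (CC, 500 μg/ml) or with vehicle (Veh). The labels do not say whether the 2 libraries of a group came from separate mice, pools of mice or cultures, so the p-values measure the spread between these libraries, which may be technical.

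Osteoclasts arise from the same myeloid precursors as macrophages. The ligand RANKL and the growth factor M-CSF act on the receptors RANK and c-Fms, while immune receptors such as OSCAR, TREM2 and SIGLEC-15 signal through adaptors with ITAM motifs and raise calcium. Calcineurin then activates NFATc1, the main transcription factor of osteoclasts, which works with PU.1, AP-1 and MITF. Their targets include DC-STAMP and OC-STAMP, membrane proteins needed for cell fusion, ATP6V0D2, a subunit of the vacuolar proton pump (V-ATPase) that has also been linked to fusion, and the secreted enzymes TRAP (*Acp5*) and cathepsin K (*Ctsk*). Several of these genes are also used by tissue macrophages that do not fuse. Multinucleated macrophages form around poorly degradable material in other tissues.

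*Mc4r*, which is disrupted in MC4R-KO mice, was checked first. Its count was 0 in the 4 libraries labelled normal and 22 to 72 in the 4 labelled steatotic, which goes against these labels if the disrupted allele leaves no transcript. Whether that allele is transcribed was not tested. *Spp1* and *Itgax*, known as genes of macrophages in fatty livers, were higher with the label steatotic in Veh libraries. Their log2 fold changes were 2.30 and 0.82 (adjusted p = 4.1e-05 and 0.0017), which runs the way of the labels. *Cd9* and *Trem2*, which the paper names for macrophages of fibrotic tissue, were not called higher there. *Cd9* was at -0.19 (adjusted p = 0.076). *Trem2* had 258.4 and 275.8 CPM with the label normal and 266.6 and 275.3 CPM with the label steatotic. These examples do not settle the labels. The groups are called by their labels, on which every direction between livers rests. Total counts were 58668655 to 74529462 per library, and a level of 3 fragments, at an inferred 4 counts per fragment, was 0.161 to 0.205 CPM. All 12 macrophage markers (*Adgre1*, *Csf1r*, *Cd68* and others) were present in every library, with 1 higher and 8 lower with CC for the label normal and 3 higher and 8 lower for the label steatotic. *Cd14* was higher for both labels (log2 fold change 0.54 and 1.08, adjusted p = 0.0015 and 2.2e-05) and *Cd68* for the label steatotic (0.17, adjusted p = 0.015). *Vsig4*, a complement receptor of resident macrophages, fell with CC for both labels (log2 fold change -2.26 and -2.76, adjusted p = 1.3e-05 and 1.1e-06), as did *C1qa*, a subunit of complement C1q (-1.31 and -1.37, adjusted p = 2.7e-05 and 3.5e-06). The 12 markers summed to 18524 to 19018 CPM with Veh and 15171 to 15522 CPM with CC in libraries labelled normal. In those labelled steatotic the sums were 16981 to 17325 CPM and 13329 to 14755 CPM.

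The osteoclast label was checked against defining markers. *Calcr*, the calcitonin receptor of mature osteoclasts, was at 0 in all 8 libraries, and *Oscar* was at 0 in 7. Of the list of 8 mature osteoclast markers, 7 could be tested, and 4 were higher and 0 lower with CC for each label. These 4 were *Mmp9* and the members *Atp6v0d2*, *Dcstamp* and *Ctsk*. As 5 of the 8 markers are members themselves, this count restates the members' values and is no independent check of the label. The bone genes *Bglap*, *Bglap2*, *Sp7*, *Ibsp* and *Dmp1* were at 0 in all 8 libraries. The genes are called osteoclast and fusion genes by name, and bulk RNA does not show whether cells had fused. In bulk RNA, more cells of a type and more RNA per cell cannot be told apart.

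Promoter sequence was looked up because the enzyme genes *Ctsk* and *Acp5*, both counted among the targets of MITF and NFATc1, had different values across the groups. RefSeq windows on GRCm38.p6 were found for 4 of the 8 genes, namely *Ctsk*, *Mitf*, *Oscar* and *Acp5*, with 8 start sites in all, and not for *Atp6v0d2*, *Dcstamp*, *Ocstamp* and *Nfatc1*. The bases before the start site are given 5′ to 3′ on the strand of the gene, with matches to the searched motifs in capitals. They are chr3:95498960-95499209 on the plus strand for *Ctsk*, chr9:22130609-22130848 on the minus strand for the third start site of *Acp5*, where the last 10 bases before the start, exonic in another *Acp5* transcript, are left out, and chr7:3616158-3616407 on the minus strand for *Oscar*.
Ctsk promoter: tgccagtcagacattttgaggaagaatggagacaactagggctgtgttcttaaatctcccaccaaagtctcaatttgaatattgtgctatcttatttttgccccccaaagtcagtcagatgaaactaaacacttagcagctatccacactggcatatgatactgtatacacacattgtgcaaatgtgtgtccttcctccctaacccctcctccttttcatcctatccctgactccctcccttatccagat
Acp5 promoter: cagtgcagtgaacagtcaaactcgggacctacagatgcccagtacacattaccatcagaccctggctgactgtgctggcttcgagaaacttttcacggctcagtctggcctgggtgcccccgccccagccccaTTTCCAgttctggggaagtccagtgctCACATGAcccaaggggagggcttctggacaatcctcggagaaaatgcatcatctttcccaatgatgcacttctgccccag
Oscar promoter: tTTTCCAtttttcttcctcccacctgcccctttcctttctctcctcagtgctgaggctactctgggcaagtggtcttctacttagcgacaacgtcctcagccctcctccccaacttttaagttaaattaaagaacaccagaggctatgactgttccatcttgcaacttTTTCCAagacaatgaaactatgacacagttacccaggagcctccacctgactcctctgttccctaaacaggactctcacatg

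The motifs, searched on both strands in the 250 bases before each start site, were the E-box CACGTG, the M-box of MITF TCATGTG, AP-1 TGANTCA, CRE TGACGTCA, an extended NFAT core TGGAAA, an extended PU.1 core GAGGAAGT, EGR GCGTGGGCG and the TATA box TATAAA, and none of the matches below overlapped another. The *Acp5* window held an M-box on the opposite strand (CACATGA, bases -90 to -84 before the start), a motif found in 3.25% of all 32851 RefSeq windows of that length, and an NFAT core (bases -117 to -112), found in 18.6%. The *Oscar* window held 2 NFAT cores (bases -249 to -244 and -82 to -77). The windows of *Ctsk* and *Oscar* lie upstream of the GENCODE M21 genes, and that of *Acp5* lies inside the gene, in an intron of its longer transcripts. None of the 8 motifs was found in the *Ctsk* window or at the other 2 start sites of *Acp5*. Of the 3 start sites of *Mitf*, the first held no match, the second held an NFAT core (bases -47 to -42), and the third held a CRE (bases -153 to -146; 1.55% of all windows) and a TATA box (bases -175 to -170; 12.4%).

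CC went with higher levels of 3 genes in libraries labelled normal, *Dcstamp* 7.41-fold, *Atp6v0d2* 2.17-fold and *Ctsk* 1.82-fold. In libraries labelled steatotic, *Atp6v0d2* rose 3.67-fold, *Ctsk* 2.71-fold, *Dcstamp* 2.37-fold and *Mitf* 1.12-fold. *Acp5*, *Ocstamp* and *Nfatc1* did not pass the test for CC with either label, and *Oscar* was too low to be tested. The rise of *Dcstamp* with the label steatotic was called in 5 of the 8 fits that left out 1 library, and that of *Mitf* in 2 of 8. The response of *Atp6v0d2* was stronger with the label steatotic than with the label normal in all 8 of these fits, while the same call for *Ctsk* was lost in each of them.

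The filter, a level of 0.5 CPM or more in 1 library or more, was passed by 7 of the 8 genes. Of these 7, 3 were called higher and 0 lower with CC in libraries labelled normal, where 11.8% of all 15202 tested genes were called (6.27% higher, 5.54% lower). Scaling by library size only in place of TMM moved the share of higher calls there from 53.1% to 42.1%, and it also turned the majority in libraries labelled steatotic (to 49.0% higher) and between the livers with Veh (to 45.2% higher). In libraries labelled steatotic 4 were called higher and 0 lower, against 22.9% of all tested genes (12.0% higher, 10.9% lower). The median log2 fold change of the 7 genes was 0.09 and 0.16, against -0.00059 and 0 for all tested genes. Between the livers, 3 genes were higher and 0 lower with Veh, against 30.7% of all tested genes (16.4% higher, 14.3% lower), and 5 higher and 0 lower with CC, against 28.8% (15.9% higher, 12.9% lower), with medians of 0.50 and 0.65. The CC responses differed in 2 of the 7 genes, both stronger with the label steatotic, against 3.22% of all tested genes (1.95% stronger, 1.27% weaker).

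**Figure D1:**
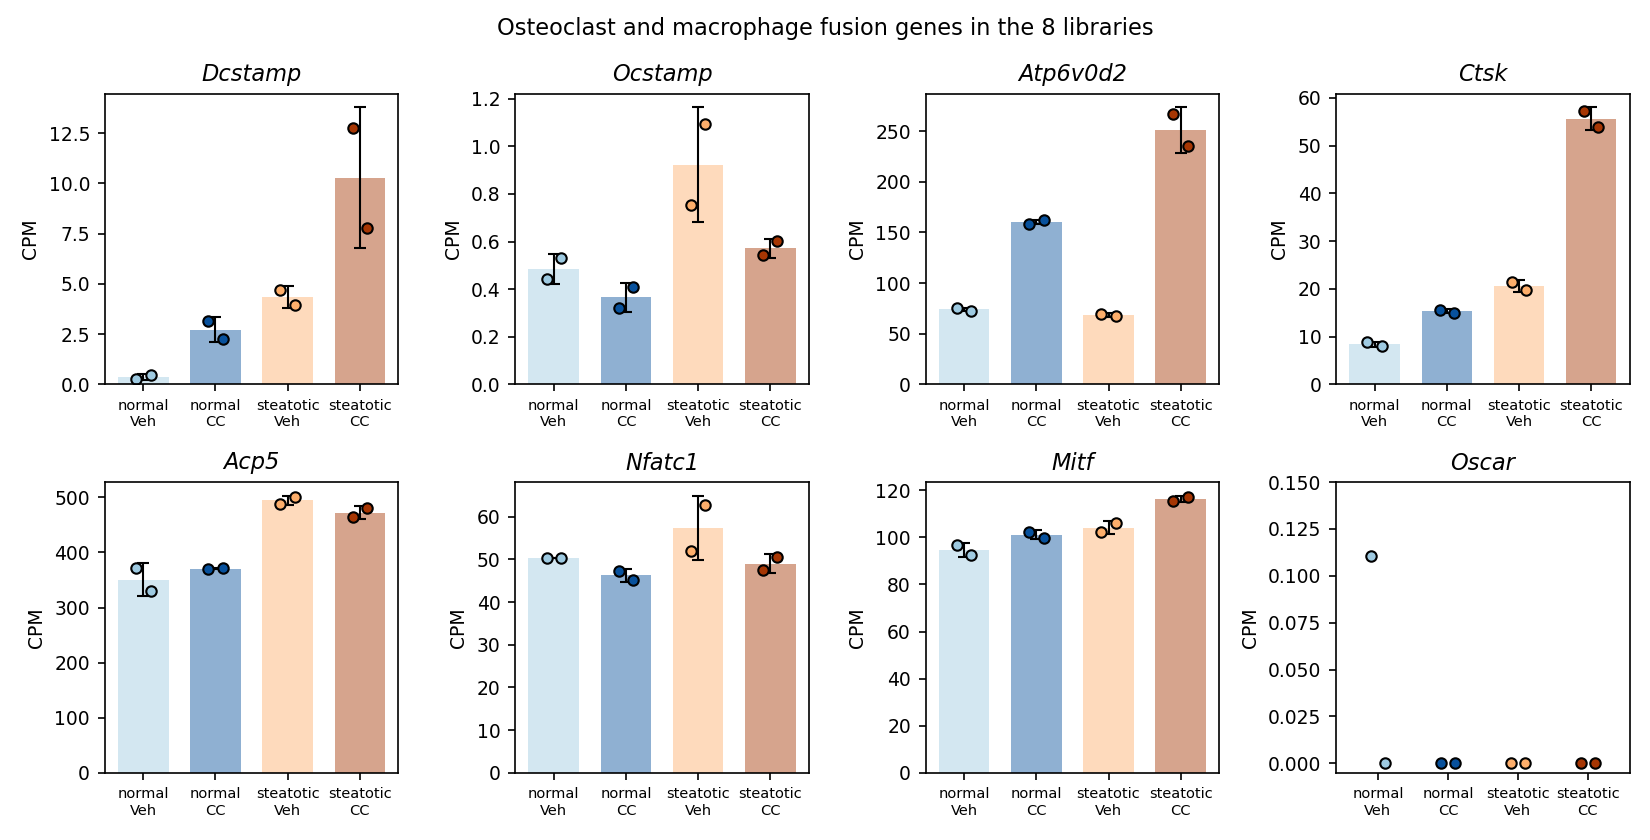
Level of each osteoclast and fusion gene in CPM (linear axes starting at 0) in the 4 groups. Points are libraries and bars with whiskers are the mean ± SD of the 2 libraries, except for *Oscar*, which is shown by its points only. *Atp6v0d2* reached 235.3 to 267.0 CPM in the libraries labelled steatotic with CC against 67.1 to 69.8 CPM with Veh, whereas *Acp5* separated by liver label and *Oscar* was at 0 in 7 libraries.

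*Dcstamp* (ENSMUSG00000022303.9, chr15:39745930-39760938, plus strand, GRCm38) encodes DC-STAMP, the transmembrane protein without which osteoclast precursors stay mononuclear. Its deposited counts were 18 and 33 in the libraries labelled normal with Veh, 198 and 133 with CC, 320 and 289 in those labelled steatotic with Veh and 821 and 572 with CC. These were 0.249 and 0.486, 3.17 and 2.27, 4.72 and 3.95, and 12.8 and 7.81 CPM. The 4 groups did not overlap and stood in that ascending order, although the first rested on few fragments and the last had the widest spread (10.3 CPM ± 3.51, SD, n = 2).

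The log2 fold change of *Dcstamp* with CC was 2.89 (SE 0.395, adjusted p = 0.00398) in libraries labelled normal. In those labelled steatotic it was 1.25 (SE 0.332, adjusted p = 0.0351). The second call was lost without replicate 1 or 2 of the steatotic Veh libraries or replicate 1 of the steatotic CC libraries (adjusted p = 0.108, 0.177 and 0.174). With Veh, *Dcstamp* was 11.8-fold higher in libraries labelled steatotic (log2 3.56, SE 0.396, adjusted p = 0.000533), and with CC 3.78-fold (log2 1.92, SE 0.342, adjusted p = 0.00566). The response to CC was smaller by 1.64 on the log2 scale with the label steatotic (95% interval of steatotic minus normal -2.85 to -0.44), with an adjusted p of 0.184 in edgeR and 0.0324 in DESeq2. Whether the responses differed thus depended on the tool.

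*Ocstamp* (ENSMUSG00000027670.4, chr2:165393760-165400405, minus strand), the fusion partner of *Dcstamp*, had 20 to 80 counts in every library. Its levels were 0.442 and 0.530 CPM in libraries labelled normal with Veh, 0.320 and 0.409 with CC, 0.752 and 1.09 in those labelled steatotic with Veh, and 0.544 and 0.600 with CC. The libraries with CC were below those with Veh for both labels, with log2 fold changes of -0.41 (95% interval -1.38 to 0.56, adjusted p = 0.608) and -0.69 (-1.61 to 0.24, adjusted p = 0.278). The difference between livers was 0.92 with Veh (adjusted p = 0.124) and 0.65 with CC (adjusted p = 0.296). A change of the size seen for *Dcstamp* with CC lay outside the interval of *Ocstamp* for both labels. Per kb of exon, *Dcstamp* was 1.02 ± 0.344 times *Ocstamp* in libraries labelled normal with Veh and 10.6 ± 4.23 times with CC, and 6.79 ± 2.58 and 25.0 ± 10.2 times in those labelled steatotic. The relatives *Dcst1* and *Dcst2*, with the same type of membrane domain, had at most 11 and 7 counts in any library.

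*Atp6v0d2* (ENSMUSG00000028238.6, chr4:19876841-19922605, minus strand, 9 exon blocks) encodes the d2 isoform of the d subunit in the membrane sector of the V-ATPase. Its levels were 75.2 and 72.8 CPM in libraries labelled normal with Veh and 158.7 and 161.9 CPM with CC. In libraries labelled steatotic they were 69.8 and 67.1 CPM with Veh and 267.0 and 235.3 CPM with CC. Every library with CC was above every library with Veh, and the 2 Veh groups lay close together.

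The log2 fold change of *Atp6v0d2* with CC was 1.11 (SE 0.0634, adjusted p = 7.0e-05) in libraries labelled normal and 1.88 (SE 0.0646, adjusted p = 2.9e-06) in those labelled steatotic. The responses differed by 0.76 (95% interval 0.55 to 0.97, adjusted p = 0.00573). With Veh the label made a difference of -0.11 (95% interval -0.26 to 0.03, adjusted p = 0.225), and with CC of 0.65 (SE 0.0627, adjusted p = 0.000228). This pattern differed from *Dcstamp*, *Ctsk* and *Acp5*, which were already higher with Veh in libraries labelled steatotic.

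The widely expressed isoform of the same subunit, *Atp6v0d1*, had 255.3 to 269.6 CPM and 308.0 to 309.3 CPM in libraries labelled normal with Veh and with CC, and 195.8 to 200.8 CPM and 250.3 to 261.3 CPM in those labelled steatotic. Its log2 fold change with CC was 0.23 (adjusted p = 0.012) and 0.37 (adjusted p = 0.00066), and the first call was lost without either normal CC library or replicate 2 of normal Veh (adjusted p of 0.055 to 0.066). Per kb of exon, *Atp6v0d2* made up 15.7% ± 0.211 (SD, n = 2) of both isoforms in libraries labelled normal with Veh and 25.5% ± 0.330 with CC. In libraries labelled steatotic the share was 18.6% ± 0.143 with Veh and 39.3% ± 1.40 with CC. Thus the libraries of the 4 groups did not overlap in this share.

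Among the other V-ATPase genes, 7 of 19 tested were higher and 0 lower with CC in libraries labelled normal, and 12 higher and 0 lower in those labelled steatotic, with medians of 0.23 and 0.33. Of all tested genes, 6.27% were higher and 5.54% lower for the label normal, and 12.0% and 10.9% for the label steatotic. None of the 19 had a log2 fold change with CC above that of *Atp6v0d2* with either label. In the difference between the responses, 2 of the 19 were called, *Atp6v0c* (1.34, adjusted p = 0.027), above *Atp6v0d2* (0.76), and *Atp6v1c1* (0.51, adjusted p = 0.0051). The call of *Atp6v0c* for this difference was lost in 6 of the 8 fits that left out 1 library. It was also lost with the replicate number as a block (adjusted p = 0.064) and with no filter beyond 1 count (adjusted p = 0.095). The 2 called subunits with the highest values were *Atp6v1h*, of the catalytic sector (0.57), and *Tcirg1*, the a3 subunit of osteoclasts (0.42), with the label normal. With the label steatotic they were *Atp6v0c*, of the proton-carrying ring (1.27, adjusted p = 0.0018), and *Atp6v1h* (0.85). *Atp6v0c* was also the subunit with the lowest value between livers with Veh (log2 fold change -1.72, adjusted p = 0.00042). With Veh, 0 of the 19 were higher and 13 lower in libraries labelled steatotic (16.4% and 14.3% of all tested genes). With CC 0 were higher and 12 lower (15.9% and 12.9% of all tested genes), where *Atp6v0d2* was higher.

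**Figure D2:**
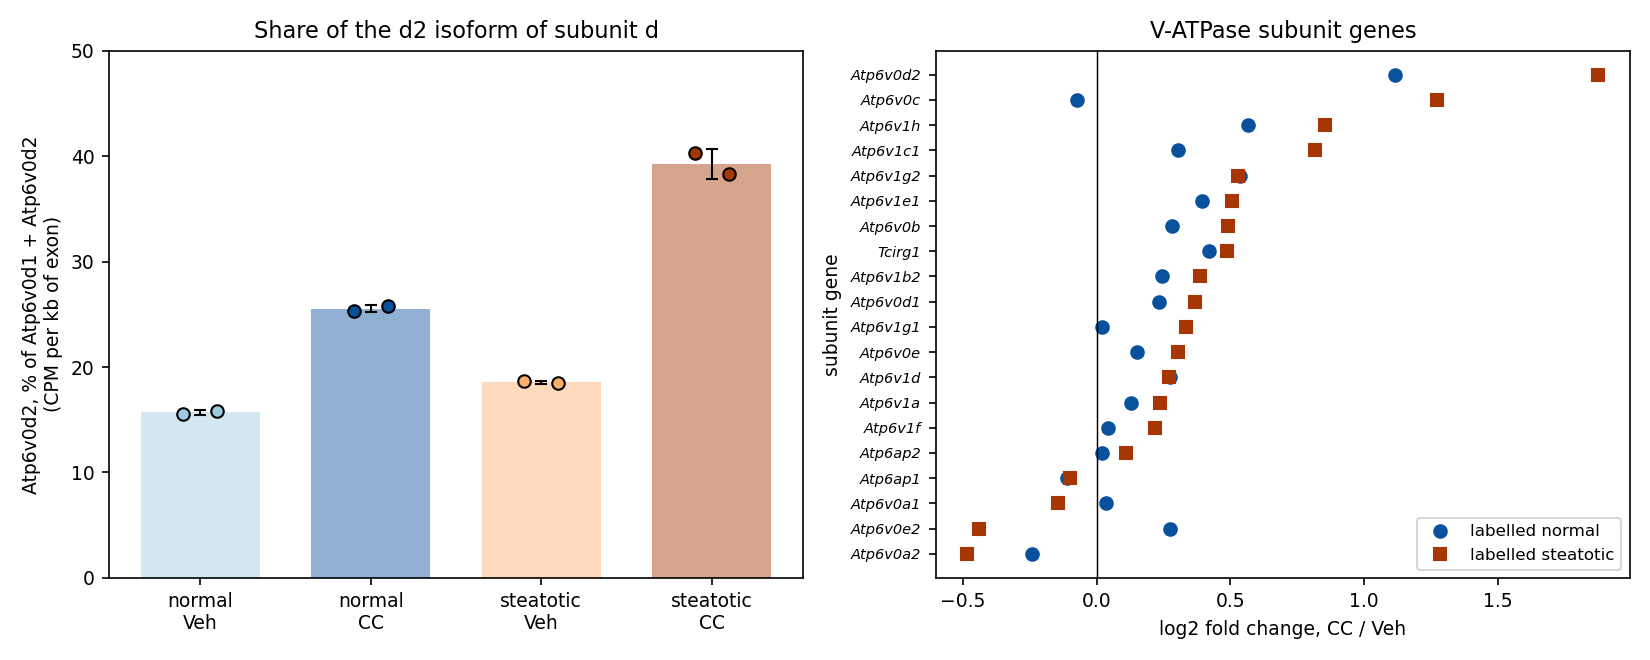
Left, share of *Atp6v0d2* in the sum of both d subunit isoforms (percent of CPM per kb of exon), with points for libraries and bars with whiskers for the mean ± SD of 2. Right, log2 fold change with CC of each V-ATPase subunit gene in libraries labelled normal (circles) and steatotic (squares), in the order of the latter. *Atp6v0d2* lies farthest to the right for both labels (1.11 and 1.88), and its share was 15.7% with Veh and 25.5% with CC for the label normal and 18.6% and 39.3% for the label steatotic.

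*Ctsk* (ENSMUSG00000028111.4, chr3:95499256-95509362, plus strand) encodes cathepsin K, the collagen-degrading protease of osteoclasts. Its levels were 8.75 and 8.03 CPM in libraries labelled normal with Veh and 15.6 and 14.97 CPM with CC. In libraries labelled steatotic they were 21.4 and 19.7 CPM with Veh and 57.3 and 54.0 CPM with CC. The groups did not overlap and stood in the same order as for *Dcstamp*, with less spread.

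The log2 fold change of *Ctsk* with CC was 0.86 (SE 0.0834, adjusted p = 0.000648) in libraries labelled normal and 1.44 (SE 0.0825, adjusted p = 2.1e-05) in those labelled steatotic. Between the livers it was 1.29 with Veh (SE 0.0836, adjusted p = 2.5e-05) and 1.87 with CC (SE 0.0839, adjusted p = 4.4e-06). The responses to CC differed by 0.57 (95% interval 0.30 to 0.84, adjusted p = 0.0457). This difference lay near the threshold and was lost when any 1 of the 8 libraries was left out, with differences of 0.50 to 0.63 and adjusted p of 0.0656 to 0.138.

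*Ctsk* lies 17423 bases from *Ctss*, which encodes the macrophage protease cathepsin S and which moved the other way with CC. *Ctss* had 6670 to 6896 CPM and 5566 to 5646 CPM in libraries labelled normal with Veh and with CC, and 8007 to 8229 CPM and 6055 to 6424 CPM in those labelled steatotic (log2 fold changes with CC -0.28 and -0.38, adjusted p = 0.0029 and 0.00026). Per kb of exon, *Ctss* was 901.0 ± 33.8 times *Ctsk* in libraries labelled normal with Veh and 409.0 ± 6.98 times with CC, and 440.3 ± 34.6 and 125.0 ± 10.5 times in those labelled steatotic. Among other lysosomal cathepsins, *Ctsl* had 1250 to 1427 CPM in libraries labelled normal and 2836 to 3081 CPM in those labelled steatotic, and was not called with CC. *Ctsb* fell with CC by 0.11 on the log2 scale in libraries labelled steatotic (adjusted p = 0.026), with a value of -0.08 in those labelled normal (adjusted p = 0.14) and a difference of -0.03 (adjusted p = 0.78). Its call was lost in DESeq2 (adjusted p = 0.13) and without any 1 of the 4 libraries labelled steatotic (0.052 to 0.11).

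*Acp5* (ENSMUSG00000001348.15, chr9:22126727-22135711, minus strand) encodes tartrate-resistant acid phosphatase (TRAP), the histological stain of osteoclasts that is also present in tissue macrophages. It had the highest level per kb of the 8 genes in each of the 4 groups. Its levels were 371.7 and 329.5 CPM in libraries labelled normal with Veh, 370.0 and 371.3 CPM with CC, 488.7 and 500.4 CPM in those labelled steatotic with Veh and 463.7 and 480.9 CPM with CC. The 4 libraries labelled steatotic were above the 4 labelled normal, and CC and Veh overlapped in the latter.

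The log2 fold change of *Acp5* between livers was 0.50 with Veh (SE 0.0567, adjusted p = 0.000459) and 0.35 with CC (SE 0.0566, adjusted p = 0.00305). With CC it was 0.08 (95% interval -0.05 to 0.21, adjusted p = 0.437) in libraries labelled normal and -0.07 (-0.20 to 0.07, adjusted p = 0.476) in those labelled steatotic. These intervals lay below the values of *Ctsk* with CC. Per kb of exon, *Acp5* was 31.1 ± 0.750 times *Ctsk* in libraries labelled normal with Veh and 18.1 ± 0.540 times with CC. In those labelled steatotic it was 17.9 ± 1.37 times with Veh and 6.33 ± 0.431 times with CC. A gene on the opposite strand, 6530413G14Rik, shares 137 exonic bases with *Acp5* and had 87 counts over the 8 libraries together.

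*Nfatc1* (ENSMUSG00000033016.16, chr18:80606205-80713071, minus strand) encodes NFATc1, whose own transcription is raised strongly when precursors become osteoclasts. Its levels were 50.40 and 50.42 CPM in libraries labelled normal with Veh, 47.4 and 45.2 CPM with CC, 52.0 and 62.7 CPM in those labelled steatotic with Veh and 47.4 and 50.6 CPM with CC. The CC libraries were below the Veh libraries for both labels by less than the test could call. The log2 fold change was -0.12 (95% interval -0.33 to 0.08, adjusted p = 0.452) and -0.23 (-0.43 to -0.02, adjusted p = 0.117). Between livers it was 0.19 with Veh (adjusted p = 0.158) and 0.08 with CC (adjusted p = 0.546). The 2 steatotic Veh libraries differed most, and without replicate 1 of them the value was -0.35 for CC (adjusted p = 0.0203) and 0.31 for the livers with Veh (adjusted p = 0.0257), and without replicate 2 it was -0.09 (adjusted p = 0.528) and 0.05 (adjusted p = 0.718).

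*Mitf* (ENSMUSG00000035158.15, chr6:97807052-98021349, plus strand, 8 transcripts summed here) encodes a transcription factor of the MiT/TFE family that regulates lysosomal and osteoclast genes. Its levels were 96.8 and 92.6 CPM in libraries labelled normal with Veh, 102.4 and 99.8 CPM with CC, 102.2 and 106.0 CPM in those labelled steatotic with Veh and 115.3 and 117.2 CPM with CC. The range of the whole set was small, and only the last group stood clearly apart.

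The log2 fold change of *Mitf* with CC was 0.16 (SE 0.0448, adjusted p = 0.0391) in libraries labelled steatotic and 0.09 (SE 0.0448, adjusted p = 0.245) in those labelled normal, a difference of 0.07 (adjusted p = 0.730). Between livers it was 0.20 with CC (SE 0.0448, adjusted p = 0.0129) and 0.14 with Veh (adjusted p = 0.0555). The call with CC was lost under 5 of the other settings, DESeq2 included (adjusted p = 0.0934), and without each of 6 libraries (both of normal CC and all 4 labelled steatotic; adjusted p of 0.0589 to 0.194). The call between livers with CC was lost without replicate 2 of the normal CC or of the steatotic CC libraries (adjusted p = 0.0766 and 0.0587). Of its relatives, *Tfe3* had 173.3 to 183.9 CPM over all libraries and no call. *Tfeb*, a regulator of lysosome genes, was lower in libraries labelled steatotic (log2 fold change -0.44 with Veh, adjusted p = 0.0018, and -0.31 with CC, adjusted p = 0.011). The call with CC was lost without replicate 1 of normal CC or replicate 2 of steatotic CC (adjusted p = 0.058 and 0.052). *Tfec* was higher with the label steatotic in CC libraries (0.24, adjusted p = 0.036), a call lost without any of 6 libraries (adjusted p of 0.058 to 0.18).

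*Oscar* (ENSMUSG00000054594.13, chr7:3609813-3616157, minus strand) encodes the osteoclast-associated immunoglobulin-like receptor. It had 8 counts (0.110 CPM) in replicate 1 of the libraries labelled normal with Veh and 0 in the other 7 libraries. It is the 1 gene of the set below the filter. A count of 0 allows up to 3 fragments, or 0.161 to 0.205 CPM, and this covers counting error only.

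**Figure D3:**
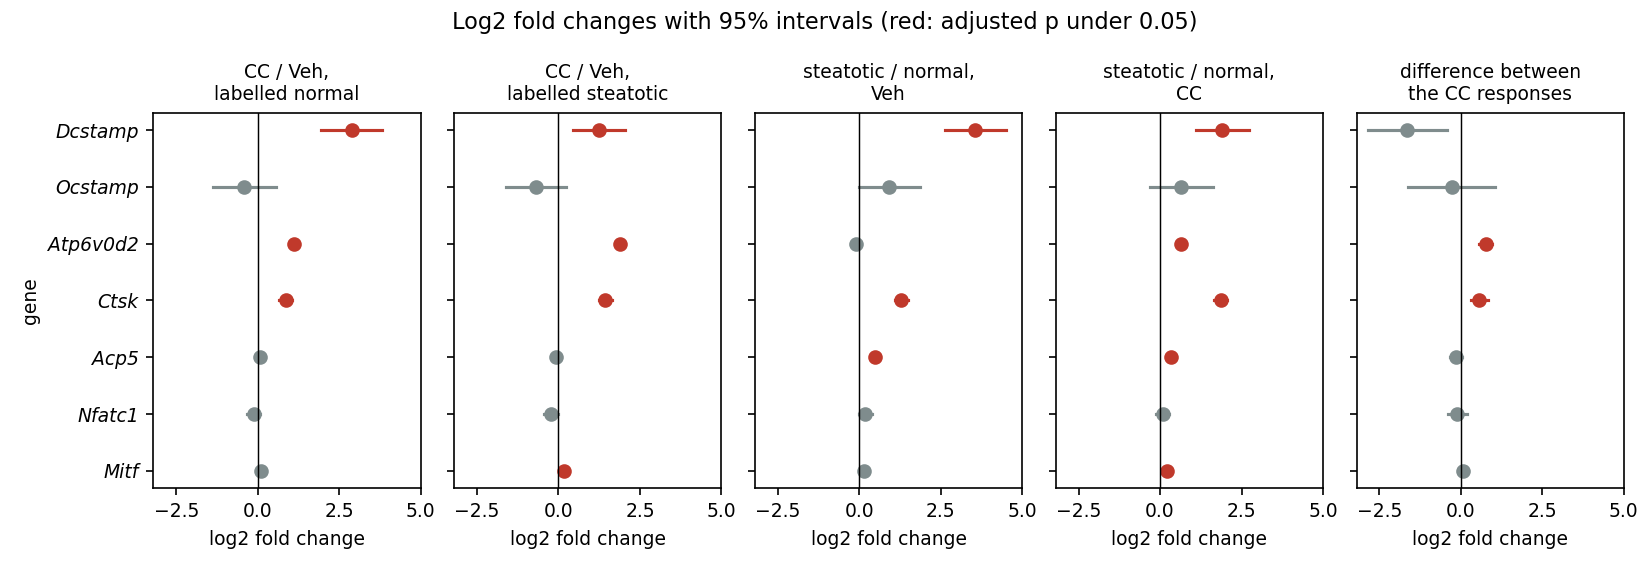
Log2 fold changes (points) with 95% intervals (lines) of the 7 tested genes in the 5 comparisons, from edgeR. Red marks an adjusted p under 0.05. *Dcstamp*, *Atp6v0d2* and *Ctsk* are to the right of 0 with CC for both labels, and in the last panel *Atp6v0d2* (0.76) and *Ctsk* (0.57) are to the right of 0.

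Set in order of level per kb of exon, the 8 genes had *Acp5* at the top and *Atp6v0d2* next in each group. *Atp6v0d2* was 27.2 CPM per kb ± 0.619 in libraries labelled normal with Veh and 92.5 ± 8.25 in those labelled steatotic with CC, where *Acp5* was 172.7 ± 14.7 and 232.7 ± 6.00. *Ctsk* moved from place 5 in libraries labelled normal with Veh (5.55 CPM per kb ± 0.339), behind *Nfatc1* (6.75 ± 0.00142), to place 3 in those labelled steatotic with CC (36.8 ± 1.56), ahead of *Mitf* (18.8 ± 0.224). *Dcstamp* and *Ocstamp* could not be separated with the label normal and Veh (0.138 ± 0.0631 and 0.133 ± 0.0171 CPM per kb). In the other groups *Dcstamp* stood above *Ocstamp*, and the other neighbours above *Oscar* differed by more than their SDs. The exon length counts each exonic base of any transcript of a gene. Genes with several transcripts, such as *Nfatc1* and *Mitf*, can thus rank too low, which the SDs do not cover. *Oscar*, last in the order, is not separated from *Ocstamp* at this depth where a count of 0 allows a level as high. *Dcstamp* thus stayed a gene of low level, with 3.86 CPM per kb ± 1.32 at its highest.

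The upstream signals were examined in lists of pathway genes. With CC, 6.27% of all tested genes were called higher and 5.54% lower for the label normal, and 12.0% and 10.9% for the label steatotic. These shares stand beside the list counts below, and no list was tested as a set. Of 7 ligands and receptors of RANK and M-CSF signalling, 4 could be tested, and 0 were higher and 2 lower with CC for each label. *Tnfrsf11a*, which encodes RANK, had 118.4 and 123.2 CPM in libraries labelled normal with Veh, 92.5 and 98.3 CPM with CC, 166.8 and 163.5 CPM in those labelled steatotic with Veh and 112.9 and 114.4 CPM with CC. It fell with CC by 0.34 (adjusted p = 0.0032) and by 0.54 (adjusted p = 0.00014) on the log2 scale, and was higher with the label steatotic. *Csf1r*, the M-CSF receptor and a macrophage marker, fell by 0.46 (adjusted p = 0.0050) and by 0.50 (adjusted p = 0.0016). *Tnfsf11*, which encodes RANKL, had 4 counts in 1 library of each CC group and 0 in the others, and its decoy receptor *Tnfrsf11b* had at most 9 counts in any library.

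Of 15 ITAM adaptors, co-receptors and kinases, 2 were higher and 5 lower with CC in libraries labelled normal, and 5 higher and 7 lower in those labelled steatotic. *Tyrobp*, the adaptor DAP12, fell by 0.35 (adjusted p = 0.0095) and by 0.38 (adjusted p = 0.0033) on the log2 scale. *Trem2*, a lipid receptor that signals through it, fell by 0.33 (adjusted p = 0.0081) and by 0.53 (adjusted p = 0.00038). The calls of *Tyrobp* and *Trem2* for the label normal were lost without replicate 1 of normal CC (adjusted p = 0.068 and 0.060) or of normal Veh (0.067 and 0.054). The kinases *Syk* (0.34 and 0.42) and *Src* (0.43 and 0.88, adjusted p = 0.0042 and 6.0e-05) rose. *Sirpb1a*, a receptor that pairs with DAP12, had 10.2 and 10.8 CPM and 2.39 and 3.07 CPM with the label normal, and 236.8 and 223.5 CPM and 102.6 and 109.8 CPM with the label steatotic, and fell with CC in both. *Tarm1*, an activating receptor of myeloid cells, had 2.28 to 2.89 CPM with Veh and 6.25 and 6.30 CPM with CC in libraries labelled steatotic (log2 1.28, adjusted p = 0.017), a call lost without replicate 2 of steatotic Veh or either steatotic CC library (adjusted p of 0.068 to 0.10). *Siglec15* had 0 and 2 counts in the libraries labelled steatotic with Veh and 19 and 38 with CC, against 16 to 31 counts in those labelled normal. Its fitted change is not given, as 1 group was at or near 0. *Siglec15* is still 1 of the 5 genes counted above as higher with the label steatotic. It passed the filter only through replicate 2 of steatotic CC (0.519 CPM), so that call rests on few fragments.

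Of 9 tested genes of calcineurin and NFAT signalling, 2 were higher and 1 lower with CC in libraries labelled normal, and 0 higher and 2 lower in those labelled steatotic. *Rcan1*, an inhibitor of calcineurin that is itself an NFAT target, rose with the label normal (119.7 and 110.1 CPM to 169.0 and 171.2 CPM, log2 0.57, adjusted p = 0.00053). With the label steatotic it had 130.4 and 133.8 CPM with Veh and 134.0 and 127.9 CPM with CC, and the responses differed by -0.58 (adjusted p = 0.0070). *Nfatc2* was called lower with CC in libraries labelled steatotic (14.4 and 12.4 CPM to 5.35 and 5.50 CPM, log2 -1.30, adjusted p = 0.0014) and had 0.750 to 1.59 CPM in those labelled normal. *Ppp3ca*, a catalytic subunit of calcineurin, fell by 0.27 (adjusted p = 0.0069) and by 0.32 (adjusted p = 0.0015), with the first call lost without replicate 1 of normal CC (adjusted p = 0.054). *Nfat5*, the family member that responds to osmotic stress, rose by 0.43 with the label normal (adjusted p = 0.033), a call lost without any 1 library other than replicate 1 of normal CC (adjusted p of 0.050 to 0.15). *Nfatc3* had 87.4 to 106.0 CPM and no call with CC.

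Among 18 other transcription factors of osteoclasts, 5 were higher and 0 lower with CC in libraries labelled normal, and 9 higher and 1 lower in those labelled steatotic. *Fosl1*, an AP-1 subunit, rose from 3.85 and 4.38 CPM to 22.7 and 19.7 CPM (log2 2.36, adjusted p = 5.7e-05) and from 1.40 and 1.37 CPM to 8.69 and 8.11 CPM (log2 2.60, adjusted p = 1.3e-05). *Fosb*, another AP-1 subunit, rose by 1.35 and 1.13 (adjusted p = 0.039 and 0.046), calls lost without 6 and 7 of the 8 libraries (adjusted p of 0.052 to 0.18 and 0.057 to 0.23). *Fos* had 92.9 to 113.8 CPM over all libraries and no call. *Spi1*, which encodes PU.1, fell by 0.20 with the label steatotic (adjusted p = 0.0036).

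Of 10 repressors of osteoclast genes, 2 were higher and 2 lower with CC in libraries labelled normal, and 2 higher and 4 lower in those labelled steatotic. The inhibitors of DNA binding *Id3* (log2 fold change -0.50 and -0.73, adjusted p = 0.0015 and 9.6e-05) and, with the label steatotic, *Id1* (-0.87, adjusted p = 0.00016) fell. *Id2* (0.64 and 0.71) and *Rbpj*, the DNA-binding protein of Notch signalling (0.57 and 0.73), rose. *Irf8*, a repressor of *Nfatc1*, had 61.8 and 117.5 CPM and 76.4 and 135.8 CPM with the label normal and 134.6 to 149.6 CPM with the label steatotic, and was not called.

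The resorption machinery had 7 of 14 tested genes higher and 1 lower with CC for each label. *Car2*, carbonic anhydrase 2, which supplies protons for acid secretion, had 12.2 and 12.7 CPM in libraries labelled normal with Veh, 39.4 and 39.5 CPM with CC, 24.6 and 25.4 CPM in those labelled steatotic with Veh and 160.4 and 175.5 CPM with CC. Its log2 fold change with CC was 1.66 (adjusted p = 1.8e-05) and 2.75 (adjusted p = 5.0e-07), and the responses differed by 1.08 (adjusted p = 0.0015). *Mmp9*, a gelatinase, rose by 1.25 and 2.17 (adjusted p = 0.0025 and 9.2e-05) but was lower with the label steatotic (log2 fold change -1.53 with Veh, adjusted p = 0.00038, and -0.62 with CC, adjusted p = 0.024), unlike *Ctsk*. Its call between livers with CC was lost without either normal CC library or replicate 1 of steatotic CC (adjusted p of 0.084 to 0.12). *Clcn7*, the lysosomal chloride exchanger, rose by 0.35 and 0.82, with responses that differed by 0.46 (adjusted p = 0.011). *Itgav* fell by 0.28 and 0.65, with the first call lost without replicate 1 of normal Veh (adjusted p = 0.051). Its partner in the osteoclast integrin, *Itgb3*, had 2.21 to 3.01 CPM with the label normal and 6.11 to 7.70 CPM with the label steatotic and no call with CC.

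Of 21 tested genes of macrophage fusion other than the members, 6 were higher and 2 lower with CC in libraries labelled normal. In those labelled steatotic 8 were higher, *Cd68* among them, and 7 lower. The tetraspanin *Cd9* had 58.2 and 56.0 CPM in libraries labelled normal with Veh, 124.1 and 116.4 CPM with CC, 50.01 and 50.2 CPM in those labelled steatotic with Veh and 196.1 and 172.1 CPM with CC. It rose by 1.08 and 1.88 (adjusted p = 0.00011 and 3.2e-06) with a difference of 0.80 (adjusted p = 0.0062), values close to those of *Atp6v0d2*. The tetraspanin *Cd81* fell by 0.54 and 0.58. The chemokine *Ccl2* rose by 0.68 and 1.05, and *Rac1*, a small GTPase of the cytoskeleton, fell by 0.23 and 0.31, with the first call lost without replicate 1 of normal CC or of normal Veh (adjusted p = 0.067 and 0.061). With the label steatotic, *Tspan5* rose by 1.19 (adjusted p = 0.0021) and *Adam9* fell by 0.82 (adjusted p = 0.0052; 0.051 in a fit of those 4 libraries alone).

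**Figure D4:**
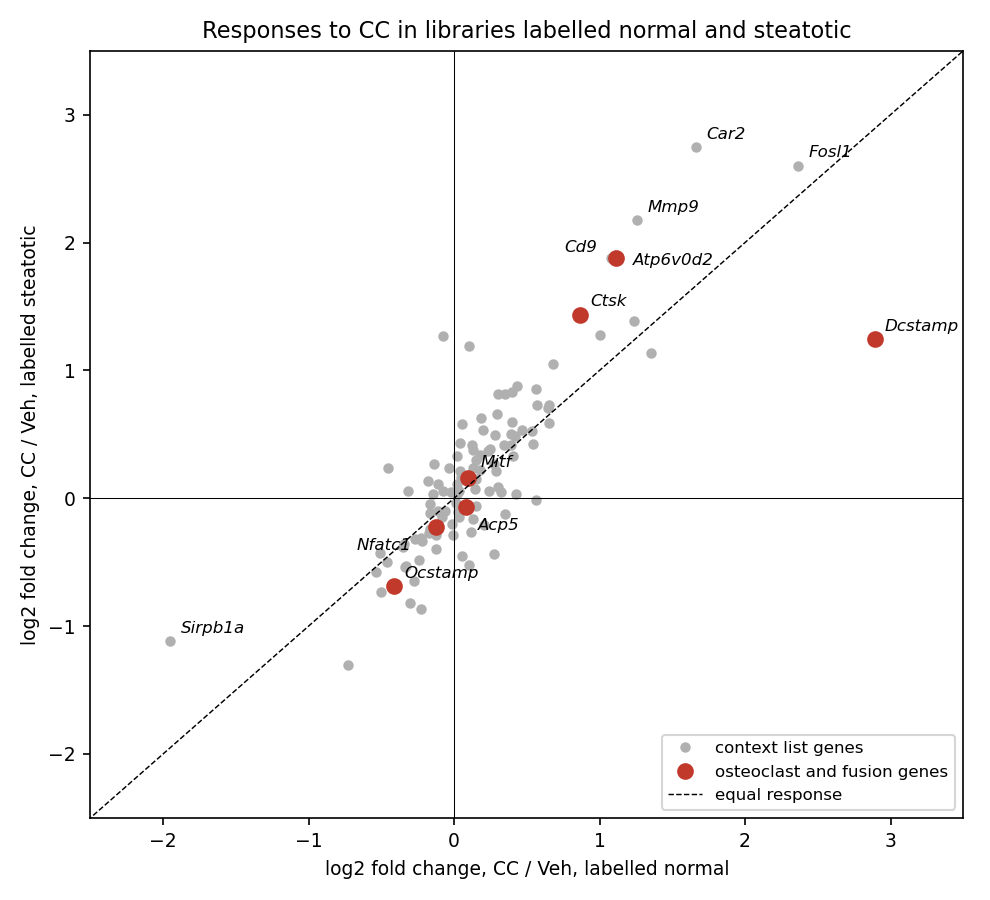
Log2 fold change with CC in libraries labelled normal (x axis) and labelled steatotic (y axis). Red points are 7 osteoclast and fusion genes, and grey points are genes of the pathway lists. Of the 108 list genes entered, *Camk4*, with no counts in normal Veh, lies outside the axes. *Siglec15* was left out. The dashed line marks equal responses. *Dcstamp* lies below the line (2.89 and 1.25), *Atp6v0d2* (1.11 and 1.88), *Cd9* (1.08 and 1.88) and *Car2* (1.66 and 2.75) lie above it, and *Acp5*, *Nfatc1* and *Mitf* lie near the origin.

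The genes most like each member over the 8 libraries were found among tested genes with a mean log2 CPM above 3. For *Atp6v0d2* they were *Cd9* (Pearson r = 0.998), *Scd1* (r = 0.997) and *Cd200* (r = 0.996). For *Ctsk* they were *Rab10* (r = 0.998), *Mmp8* (r = 0.997) and *Ncf4* (r = 0.997), and *Ncf4* and *Mmp8* also led for *Mitf*, with *Sbds*. For *Dcstamp* they were *Gpr35* (r = 0.990), *Atad2b* and *Dnajc1*, and for *Acp5* *B4galnt1* (r = 0.980), *Rpl30-ps10* and *Zfas1*. For *Ocstamp* they were *Tbc1d10b*, *Mrpl13* and *Abracl*, and for *Nfatc1* *Dennd6a*, 9530068E07Rik and *Ube2e3*. Within the set, r was 0.976 for *Ctsk* and *Mitf* and 0.915 for *Dcstamp* and *Ctsk*, but -0.60 for *Atp6v0d2* and *Nfatc1*. These values are descriptions over 8 libraries in 4 groups that share the same libraries and depth, and such high values arise easily among many genes from the 4 group means.

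Markers of other cells differed between the groups in which the genes were compared. All 8 markers of T and NK cells were higher with the label steatotic, with summed levels of 0.801 to 1.35 CPM with the label normal and 13.5 to 18.4 CPM with the label steatotic. Of 8 hepatocyte markers, 5 were lower with the label steatotic (49.1 to 57.8 CPM against 1.74 to 2.44 CPM). The 8 endothelial markers summed to 168.7 to 171.5 CPM and 204.6 to 208.4 CPM in libraries labelled normal with Veh and with CC, and to 320.1 to 347.0 CPM and 299.4 to 313.6 CPM in those labelled steatotic. With CC, 2 of the 7 tested endothelial markers were higher and 0 lower for the label normal, and 4 higher and 1 lower for the label steatotic, the lower one being *Pecam1* (96.8 and 94.8 CPM with Veh, 36.2 and 41.4 CPM with CC). The 8 stellate cell and fibroblast markers summed to 3.12 to 3.27 CPM and 5.99 to 7.68 CPM with the label normal. With the label steatotic they summed to 18.3 to 21.8 CPM and 110.3 to 138.7 CPM. *Dcn*, the only one of them that passed the filter, made up nearly all of the sums other than normal Veh. There it had 2.09 and 2.02 CPM. Of 6 neutrophil markers, *Ly6g* was at 0 in all 8 libraries and only *S100a8* passed the filter, and their sums, nearly all from *S100a8*, were 8.85 to 9.69 CPM and 14.4 to 15.05 CPM with the label normal and 4.83 to 5.49 CPM and 19.0 to 19.9 CPM with the label steatotic. *Runx2*, the only tested gene of the bone list, had 0.732 to 1.15 CPM and 3.33 to 3.92 CPM with the label normal and 6.38 to 6.75 CPM and 13.8 to 17.1 CPM with the label steatotic. The sums of dendritic cell (67.5 to 159.4 CPM), B cell (1.23 to 3.03 CPM) and proliferation markers (10.3 to 17.5 CPM) had no gene called higher with CC. The dendritic cell sum was mostly *Irf8* (61.8 to 149.6 CPM), and no other marker of that list exceeded 6.72 CPM (*Xcr1*). The part of other cells in the levels of *Dcstamp*, *Ctsk* and *Atp6v0d2* was not tested.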

How the data were processed

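RNA of 8 libraries of hepatic macrophages, 2 in each of 4 groups, was sequenced after poly(A) selection and directional library preparation as 150 bp paired ends. Per the paper, fastp trimmed the reads, HISAT2 placed them on mm10 and StringTie estimated gene abundance (versions not given in the sources used here). The authors deposited estimated counts (expected counts) of 55401 genes, not normalized or pooled. The values are whole numbers, so none was rounded. Small values were multiples of 4 more often (35.0% to 36.5% of values of 1 to 20) than large ones (23.9% to 27.0% of values of 100 to 1000), so 1 fragment was taken to be about 4 counts. Libraries were grouped by their labels.

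Counts were scaled by TMM (factors 0.981 to 1.03), and CPM divide by the scaled total. The 15202 genes that reached 0.5 CPM in any library were tested with edgeR 4.0.16 in R 4.3.3 (glmQLFit with robust estimation, glmQLFTest) in 1 model with 4 group means and 5 contrasts. P-values were adjusted by Benjamini-Hochberg over all 15202 genes, with a threshold of 0.05. Intervals are 95% and two-sided. Positions, exon lengths and overlaps came from GENCODE M21 for GRCm38, and promoter windows from RefSeq. Levels per kb divide CPM by the exon length of the gene. Total counts were 58668655 to 74529462, and 3 counts were 0.0403 to 0.0511 CPM. These floors cover counting error only.

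The members, pathway lists and marker lists were chosen with earlier results of these data known. All 8 members were named, with fixed partners and relatives, in each list up to 2 genes with the largest rise and 2 with the largest fall with CC among those called for each label, and the 3 genes with the highest Pearson r to each member. *Runx2*, *Dcn* and *S100a8* were named after their values were seen, as the only tested genes of their marker lists, and *Spp1*, *Itgax*, *Atp6v1c1* and the marker and bone genes as examples.

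Alternatives were DESeq2 1.42.0, edgeR with the size factors of DESeq2 or with library size only, no filter beyond 1 count, 0.5 CPM in at least 2 libraries, counts divided by 4, a prior count of 4, a block for the replicate number, a fit of only the 4 libraries compared, and each library left out. The fit was tested on simulated counts for the 15202 genes, with dispersions taken from these data. The changed genes were drawn from those with a mean above 2 CPM. With a 2-fold change in 100 genes and a 4-fold change in 100 others, 80% and 95% were recovered for CC with the label normal. The shares were 76% and 91% for CC with the label steatotic, and 58% and 90% for the difference between the responses. In these comparisons 14 or 15 unchanged genes were called. Between livers 83% and 98% were recovered with Veh and 85% and 96% with CC, with 19 unchanged genes called in each. The rates do not cover levels as low as those of *Ocstamp*, or of *Dcstamp* with the label normal and Veh. Figures were drawn with matplotlib 3.10.9.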

Additional observations from a re-analysis of the deposited data

Results flagged for a closer look

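The response of *Atp6v0d2* to CC with the label steatotic exceeded that with the label normal by 0.76 on the log2 scale (edgeR, test of the difference between the responses, adjusted p = 0.00573). Both CC libraries were above both Veh libraries for each label. The call held in each of the 8 fits that left out 1 library.

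The response of *Ctsk* was larger by 0.57 (adjusted p = 0.0457), also with both CC libraries above both Veh libraries for each label. This call was lost in each fit that left out 1 library.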

How the results depend on the processing

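The counts of called members were the same or within 1.5 times under the other tools, scalings, filters, count divisors and prior counts. With 1 library left out, where the lone library of a group is assumed to vary like the others, 3 of 7 members were called with CC in libraries labelled normal in every fit, 2 to 4 in those labelled steatotic and 1 for the difference between the responses. The count of 2 arose without replicate 2 of steatotic Veh and without replicate 1 of steatotic CC. With 1 library left out, the difference between the responses ranged from -0.52 to 0.021 for *Ocstamp* and from -0.24 to 0.037 for *Nfatc1*. It was above 0 for both without replicate 2 of steatotic Veh, against -0.27 and -0.10 with all libraries, and neither was called in any fit. DESeq2 called *Dcstamp* for this difference (-1.66, adjusted p = 0.0324; -1.73 to -1.48 and adjusted p of 0.0324 to 0.244 over all other settings). The cause was not tested.

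Library size only, in place of TMM, gave 42.1% higher among all calls with CC in libraries labelled normal, against 53.1%, and no member other than *Mitf* with CC lost or gained a call by it. With 1 library left out, 1020 to 1761 of all genes were called with CC for the label normal, against 1795, and 298 to 427 for the difference between the responses, against 490. The replicate number as a block gave 3 called members with CC for each label. With the label steatotic *Mitf* was lost (adjusted p = 0.0615), and no other call of a member changed. Same-numbered libraries of different groups did not deviate together (r of -0.032 to 0.043). With only 1 difference per gene in each group, this cannot exclude that same-numbered libraries came from the same mice or pools. *Oscar* at 8 counts in 1 library, *Ocstamp* at 20 to 80 counts and *Dcstamp* at 18 and 33 counts in normal Veh are limited by depth.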
